A study of Mus musculus with 12 samples.

Results

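The interferon regulatory factors are a family of transcription factors, and 8 of their genes, Irf1, Irf2, Irf3, Irf4, Irf5, Irf7, Irf8 and Irf9, were taken by symbol from a table of 23937 mouse genes. Their transcripts were measured by RNA sequencing in cells sorted as CD8 T cells, lymphocytes that recognise and kill target cells. The 12 libraries form 4 groups of 3, from the brains of mice 30 days after stroke (day 30 brain), the brains of mice 3 days after stroke (day 3 brain), the brains of naive mice (naive brain) and the blood of naive mice (naive blood). The naive groups served as the controls of the study, and all mice are described only as naive or post-stroke. Strain, sex, age, the stroke procedure and the number of mice behind a sample were not given in the sources used here. One protocol field names dissociated spleens as the starting tissue, whereas each sample carries a brain or blood label, which is used here. Whether samples of a group came from different mice is unstated. Every p-value therefore refers to the spread among samples within groups, pooled over the groups in the fit, and that spread may be technical.

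Interferon regulatory factors share a DNA-binding domain with a row of tryptophans that reads GAAA repeats in the interferon-stimulated response element (ISRE). Irf3 and Irf7 are switched on by phosphorylation when cells sense foreign nucleic acid and drive the genes of type I interferons, and Irf9 acts downstream of the type I interferon receptor to turn on interferon target genes. Irf1 is induced by interferon gamma through a gamma-activated site (GAS), and Irf2 competes with it at shared sites. Irf4 and Irf8 bind DNA weakly alone and pair with PU.1 (Spi1) at Ets-Irf composite elements (EICE) or with BATF at AP-1 composite elements. Irf4 is induced by antigen receptor signalling in lymphocytes, whereas Irf8 and Irf5 are known for monocytes, dendritic cells and, in the brain, microglia. In what follows Irf1, Irf2 and Irf4 are called the lymphoid members, Irf5 and Irf8 the myeloid members and Irf3, Irf7 and Irf9 the interferon arm. The names stand for where a gene is best known and not for where its transcripts came from, since Irf8 is also found in activated T cells and B cells and Irf1 in most cells.

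In the mm10 build and the GENCODE vM21 annotation, Irf1 lies on chromosome 11 from 53770014 to 53778374, Irf2 on chromosome 8 from 46739732 to 46847458 and Irf4 on chromosome 13 from 30749226 to 30766976. Irf5 lies on chromosome 6 from 29526625 to 29541871 and Irf8 on chromosome 8 from 120736358 to 120756694. Irf3 lies on chromosome 7 from 44997648 to 45002848, Irf7 on the same chromosome from 141262706 to 141266481 and Irf9 on chromosome 14 from 55603571 to 55610030. Irf7 is on the minus strand and the other 7 are on the plus strand. Irf3 overlaps Bcl2l12, Irf5 overlaps Tnpo3 and Irf7 overlaps Phrf1, each on the opposite strand, and Irf9 overlaps Rnf31 on the same strand. Irf8 overlaps Gm20388 on the same strand. Irf1 overlaps Gm17334, and Irf2 overlaps Gm31172, Gm45479 and Gm45481, all on the opposite strand. The Gm genes named here were not among the genes measured. The kit does not mark strand, so reads in those overlaps cannot be told apart.

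Promoter windows of 300 bases were available from RefSeq (GRCm38.p6, the same build as mm10) for all 8 genes, 11 windows in all, and were searched on both strands for 4 short motifs: ISRE as GAAANNGAAA, GAS as TTCNNNGAA, EICE as GGAANNGAAA and an NF-kB site as GGGNNTTTCC. Matches were found in 1 window each of Irf1, Irf2 and Irf8. These are shown because letters matching the interferon gamma element occurred in both lymphoid and myeloid members. Capitals mark the matches, the strand is plus, and positions are counted from the annotated start of transcription. The windows are chr11:53769764-53770063 for Irf1, chr8:120736108-120736407 for Irf8 and chr8:46739495-46739794 for Irf2.
Irf1: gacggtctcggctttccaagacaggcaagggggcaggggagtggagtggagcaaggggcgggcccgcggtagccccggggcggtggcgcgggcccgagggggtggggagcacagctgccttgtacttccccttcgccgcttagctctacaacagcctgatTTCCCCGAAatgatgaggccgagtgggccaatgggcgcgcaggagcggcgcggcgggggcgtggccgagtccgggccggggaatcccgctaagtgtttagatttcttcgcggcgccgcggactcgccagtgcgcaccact
Irf8: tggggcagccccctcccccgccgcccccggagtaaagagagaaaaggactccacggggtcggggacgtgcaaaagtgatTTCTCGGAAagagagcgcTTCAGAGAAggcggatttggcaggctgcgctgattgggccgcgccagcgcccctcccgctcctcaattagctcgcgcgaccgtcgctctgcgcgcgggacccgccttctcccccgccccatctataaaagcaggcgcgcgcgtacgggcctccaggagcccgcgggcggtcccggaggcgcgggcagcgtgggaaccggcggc
Irf2: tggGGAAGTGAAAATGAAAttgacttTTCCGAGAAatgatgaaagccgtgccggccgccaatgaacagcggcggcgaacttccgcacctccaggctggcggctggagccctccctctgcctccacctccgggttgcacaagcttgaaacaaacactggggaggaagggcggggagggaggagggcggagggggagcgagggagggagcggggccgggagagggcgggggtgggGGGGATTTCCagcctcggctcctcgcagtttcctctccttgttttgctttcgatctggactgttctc
Irf1 held 1 GAS at -90 and Irf8 held 2, at -171 and -153. Irf2 held a GAS at -224, an ISRE at -241 overlapped by an EICE at -247, and an NF-kB match at -17. Of 32851 promoter windows of the same length, 8.30% held a GAS, 3.44% an ISRE, 2.72% an EICE and 1.63% the NF-kB letters. A match is a description of the letters, and binding was not measured.

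Values are the deposited CPM, computed on a scaled library size, and the libraries held 1104490 to 21014171 reads on genes. The 3 reads that a count of 0 allows correspond to 0.298 to 1.65 CPM. Libraries fell into 5 with few and 7 with many reads on 1484 chemosensory receptor genes (olfactory, vomeronasal, taste), a background that does not follow the groups evenly: naive brain 1, 2 and 3, day 3 brain 1 and day 30 brain 1 were low, and the others, with all of naive blood, were high. All 9 T cell marker genes in the table were detected in every library, Cd8a at 52.8 CPM or more. Their sum was 3903 to 18629 CPM in day 30 brain, 351 to 3539.5 CPM in day 3 brain, 8009 to 14094 CPM in naive brain and, in naive blood, 1860.1 to 3465 CPM. Microglia markers had reads as well, with 14 of 14 genes in every library, but some blood values lay under the floor. C1qa had 1.08 CPM in naive blood 1, where the floor was 1.62 CPM. Sall1 had 0.704 CPM in naive blood 3, where it was 1.06 CPM.

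Most differences of the 8 genes that passed were between brain and blood. Between naive brain and naive blood, Irf1, Irf3, Irf5, Irf7 and Irf8 were higher in naive brain, against a background of 6.61% of 22352 genes higher and 0.975% lower at a limma adjusted p under 0.05. Of the 8 genes, 7 had a positive difference, and their median was 2.94 on the log2(CPM + 1) scale, against -0.37 over all genes. Between day 30 and naive brain, Irf5 was lower and no other member passed, where 0.224% of genes were lower and 0% were higher. All 8 differences were below 0 there, with a median of -1.29 against 0.19 over all genes. That direction depended on the setting. Irf2, Irf3, Irf4, Irf7 and Irf9 were above 0 with library background in the fit and within the low background libraries. Irf2, Irf4 and Irf9 were above 0 with unscaled CPM. Between day 3 and naive brain none of the 8 passed, where 0.152% of genes were higher and 0.564% lower; by limma, edgeR and DESeq2 alike the count was 0, and Irf1, Irf3 and Irf5 had an unadjusted p under 0.05. The median was -1.20 against 0.50 over all genes, with 2 positive differences. Between day 30 and day 3 brain none passed either, where 0.116% of genes were higher and 0.139% lower, the median was -0.37 against -0.15 over all genes, and 3 differences were positive. Irf8, Irf4 and Irf5 had an unadjusted p under 0.05 in that comparison, Irf8 passed with DESeq2 and none passed with edgeR.

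**Figure D1:**
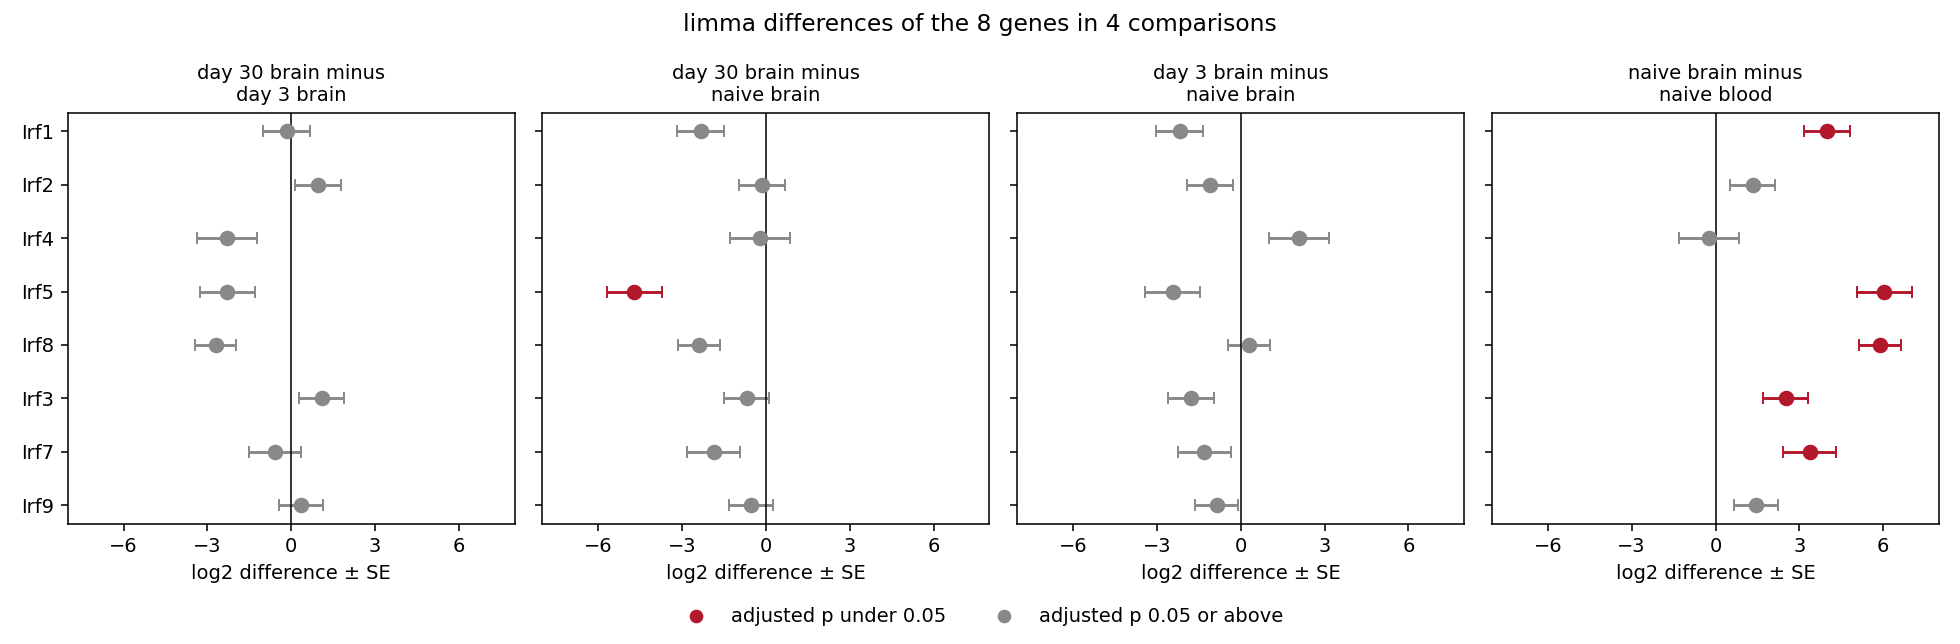
Log2 difference of each of the 8 genes (dot) with its standard error (bar) in 4 comparisons, from limma on log2(CPM + 1). Red marks an adjusted p under 0.05: Irf5 in day 30 minus naive brain, and Irf1, Irf3, Irf5, Irf7 and Irf8 in naive brain minus naive blood.

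Irf8, the factor that directs monocyte and dendritic cell development and is expressed by microglia, was low at day 30 among the brain groups and lower still in blood. It had 81.3, 142 and 79.9 CPM in day 30 brain, 751, 538 and 654 CPM in day 3 brain, 277, 1031 and 485 CPM in naive brain and, in naive blood, 7.03, 22.5 and 2.46 CPM. All 3 day 30 libraries lay below all day 3 and all naive brain libraries. Day 3 and naive brain overlapped, and every brain library lay above every blood library. The share of all genes whose groups separate as fully was not counted, for Irf8 or for the members below. Against naive blood, Irf8 was 5.90 ± 0.75 (log2 difference ± SE) higher in naive brain (limma adjusted p = 3.57e-08). In these sorted bulk samples, fewer cells of a type and less RNA per cell cannot be told apart. Irf8 was the 1 member of the 5 that still passed when the fit held a term for background (5.93, limma adjusted p = 0.00201). It passed under every other setting run for that comparison. Naive brain was all low and blood all high in background, so the term was set by the day 3 and day 30 libraries alone. For any gene, it therefore cannot separate background from tissue between naive brain and blood.

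Between day 30 and day 3 brain, Irf8 differed by -2.71 ± 0.75 with a limma adjusted p of 0.11 (unadjusted p = 0.00059), which missed the threshold. The replicate number was also set as a block, although the same number need not mark a pair. The same difference then had a limma adjusted p of 0.000191, in a fit where 1.27% of genes were lower. It also passed with unscaled CPM (-3.01, adjusted p = 0.000141), quantile normalization (-3.21, 0.0274), the background term (-2.71, 0.0429) and DESeq2 (-2.77, 0.034). It missed with edgeR (-2.69, 0.29) and when any day 30 or day 3 library was left out (limma adjusted p 0.156 to 0.395). In the high background libraries alone, replicates 2 and 3 of both groups, the difference was -2.47 with an adjusted p of 0.376. Against naive brain the day 30 difference was -2.40 ± 0.75 (adjusted p = 0.215) and that of day 3 was 0.31 ± 0.75 (adjusted p = 0.811). The day 30 and day 3 comparisons share the 3 naive brain libraries.

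**Figure D2:**
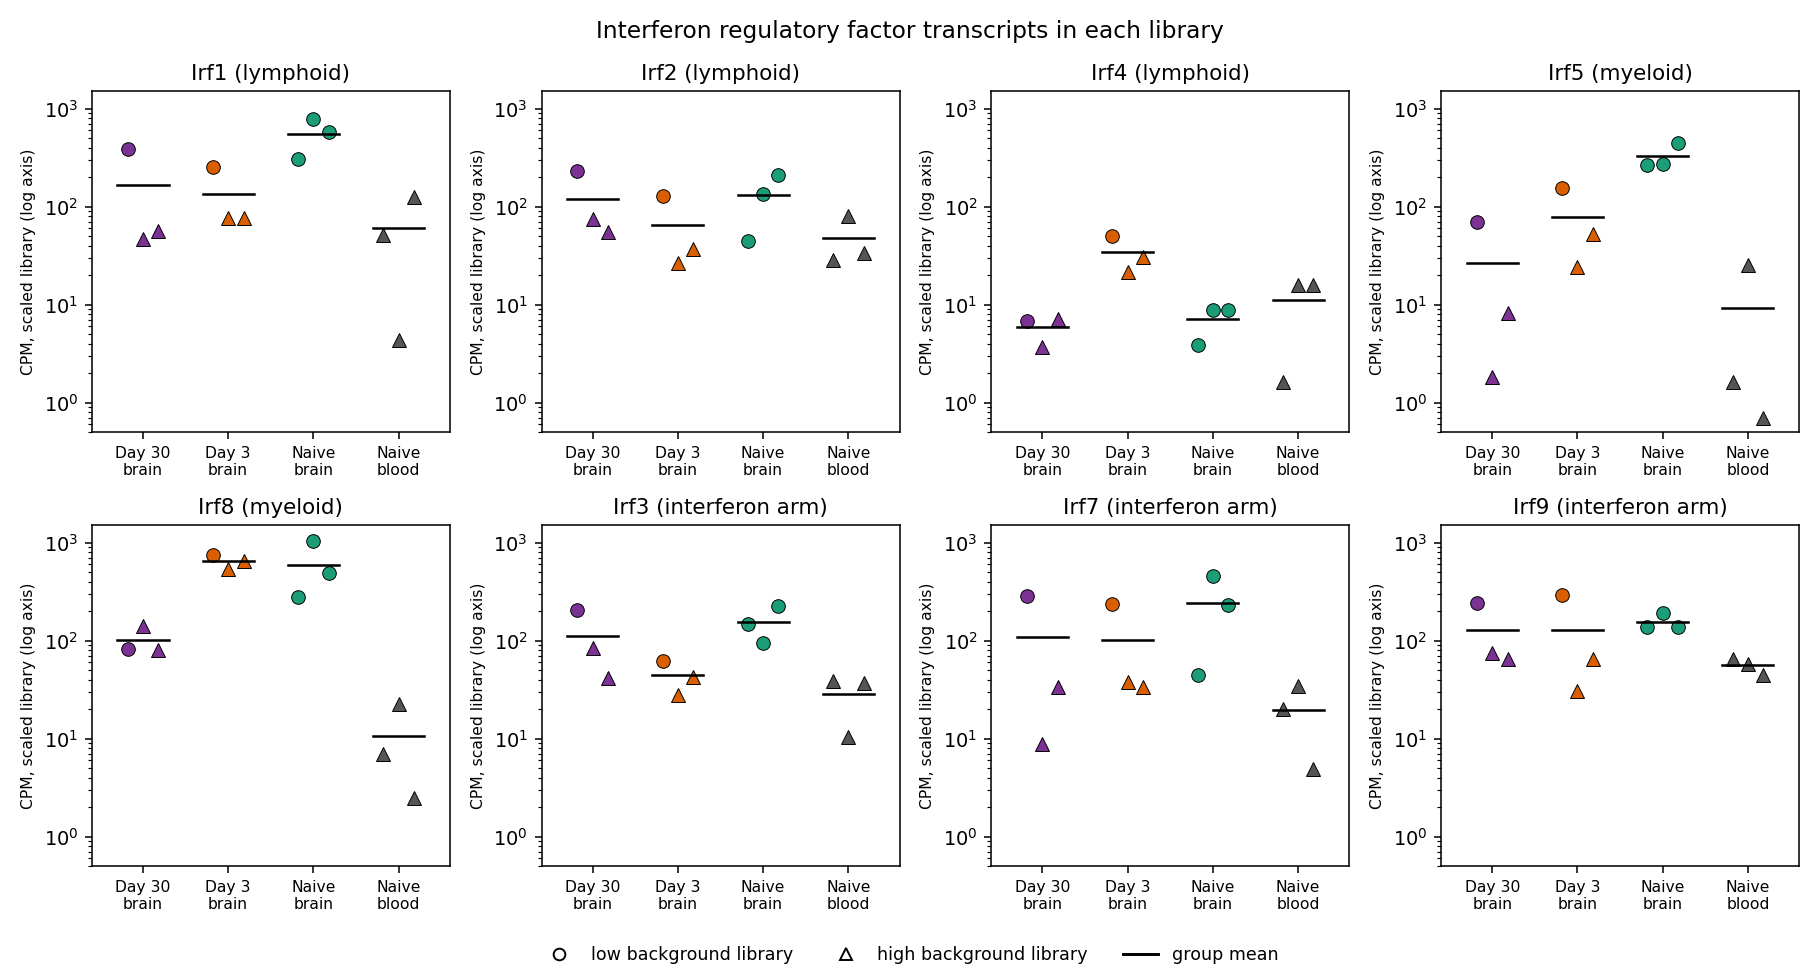
CPM of each of the 8 genes in each library on a log axis, by group, with circles for low and triangles for high background libraries and lines at group means. Irf8 at day 30 sat between 79.9 and 142 CPM, below all day 3 libraries (538 to 751 CPM), while most other members had their highest day 30 and day 3 value in the low background replicate 1.

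Irf5, which turns on inflammatory cytokine genes downstream of Toll-like receptors in macrophages, was high in naive brain and lower at day 30. It had 69.3, 1.84 and 8.13 CPM in day 30 brain, 156, 24.1 and 52.5 CPM in day 3 brain, 269, 271 and 451 CPM in naive brain and, in naive blood, 1.62, 25.2 and 0.704 CPM. The naive brain libraries lay above all others, and the blood values of 1.62 and 0.704 CPM were 3 and 2 reads, at or under the floor. Irf5 was lower in day 30 than in naive brain (log2 difference -4.72 ± 0.98, limma adjusted p = 0.0289) and 6.04 ± 0.98 higher in naive brain than in naive blood (adjusted p = 1.19e-05). At day 3 it differed from naive brain by -2.43 ± 0.98 (adjusted p = 0.293), and day 30 differed from day 3 by -2.29 ± 0.98 (adjusted p = 0.696). The day 30 call was lost when any one day 30 or naive brain library other than day 30 replicate 1 was left out. The limma adjusted p was then 0.0757 to 0.412, highest without day 30 replicate 2. Within the low background libraries the day 30 difference was -2.19, with the lone day 30 library assumed to vary like the other groups. With the background term the day 30 difference was -2.75 (adjusted p = 1) and the naive brain difference from blood 3.09 (0.994).

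List medians of microglia, dendritic cell and monocyte and macrophage markers were positive for naive brain against blood, as were Irf8 and Irf5. The neutrophil list ran the other way there, with a median of -1.37, although 1 of its 8 genes tested was higher in naive brain. Among the brain groups the medians parted. For day 3 against naive brain they were -2.28 for microglia, 1.01 for dendritic cells, 2.11 for monocytes and macrophages and 2.17 for neutrophils. Irf5 differed by -2.43 there and Irf8 by 0.31. The summed microglia markers were 1646 to 9462 CPM in day 30 brain, 2148 to 25695 CPM in day 3 brain, 18271 to 47920.0 CPM in naive brain and, in naive blood, 164 to 340.1 CPM, and none of the 14 was at 0 in any library. All 14 were higher in naive brain than in naive blood, 5 of 14 (Tmem119, Fcrls, C1qa, C1qc and Cx3cr1) were lower in day 30 than in naive brain, 2 of 14 (Tmem119 and Cx3cr1) were lower at day 3 than in naive brain, and 0 of 14 passed between day 30 and day 3. Irf5 had its highest values in the group where these markers were highest.
Dendritic cell markers summed to 845 to 1748 CPM in day 30 brain, 4208 to 39290.5 CPM in day 3 brain, 5498 to 9419 CPM in naive brain and, in naive blood, 224 to 307 CPM. As for Irf8, every day 30 library lay below every day 3 and naive brain library. Day 3 replicate 1 held the highest sum, of which Cd74 gave 13624.5 CPM, H2-Aa 9408, H2-Ab1 9191 and H2-Eb1 4516. Day 3 replicate 2, at 4208 CPM, lay below all of naive brain, and day 3 replicate 3, at 6017 CPM, lay within its range. Siglech is on the microglia list as well. Cd209a ran against the sum, at 85.9, 99.2 and 121 CPM in day 30 brain and 77.1, 64.2 and 0.0993 CPM in naive brain. Of 13 genes, H2-Aa, H2-Ab1 and H2-Eb1 were lower at day 30 than at day 3, H2-Ab1 and H2-Eb1 were lower at day 30 than in naive brain, and 6 were higher in naive brain than in blood, while Cd209a was at 0 in 1 blood library. Monocyte and macrophage markers summed to 2496 to 7229 CPM in day 30 brain, 2658 to 19426 CPM in day 3 brain, 5712 to 6818 CPM in naive brain and, in naive blood, 361 to 1546 CPM. Of 13 of these, Chil3 and Gpnmb were higher at day 3 than in naive brain and 5 were higher in naive brain than in blood, and 5 (Ms4a7, Cd163, Gpnmb, Fcgr1 and Arg1) were at 0 in 1 or more libraries. B cell markers stayed at sums of 24.9 to 139 CPM in day 30 brain and 62.8 to 98.7 CPM in day 3 brain. Their sums were 30.2 to 76.8 CPM in naive brain and, in naive blood, 60.6 to 86.9 CPM. None of 8 B cell genes was called in any comparison. Natural killer cell markers summed to 1123 to 2188 CPM in day 30 brain, 1346 to 8624 CPM in day 3 brain, 2596 to 6468 CPM in naive brain and, in naive blood, 159.6 to 527 CPM, with Tyrobp and Fcer1g, both also expressed by myeloid cells, higher in naive brain than in blood. The part of these cells in the Irf8 and Irf5 values was not tested.

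**Figure D3:**
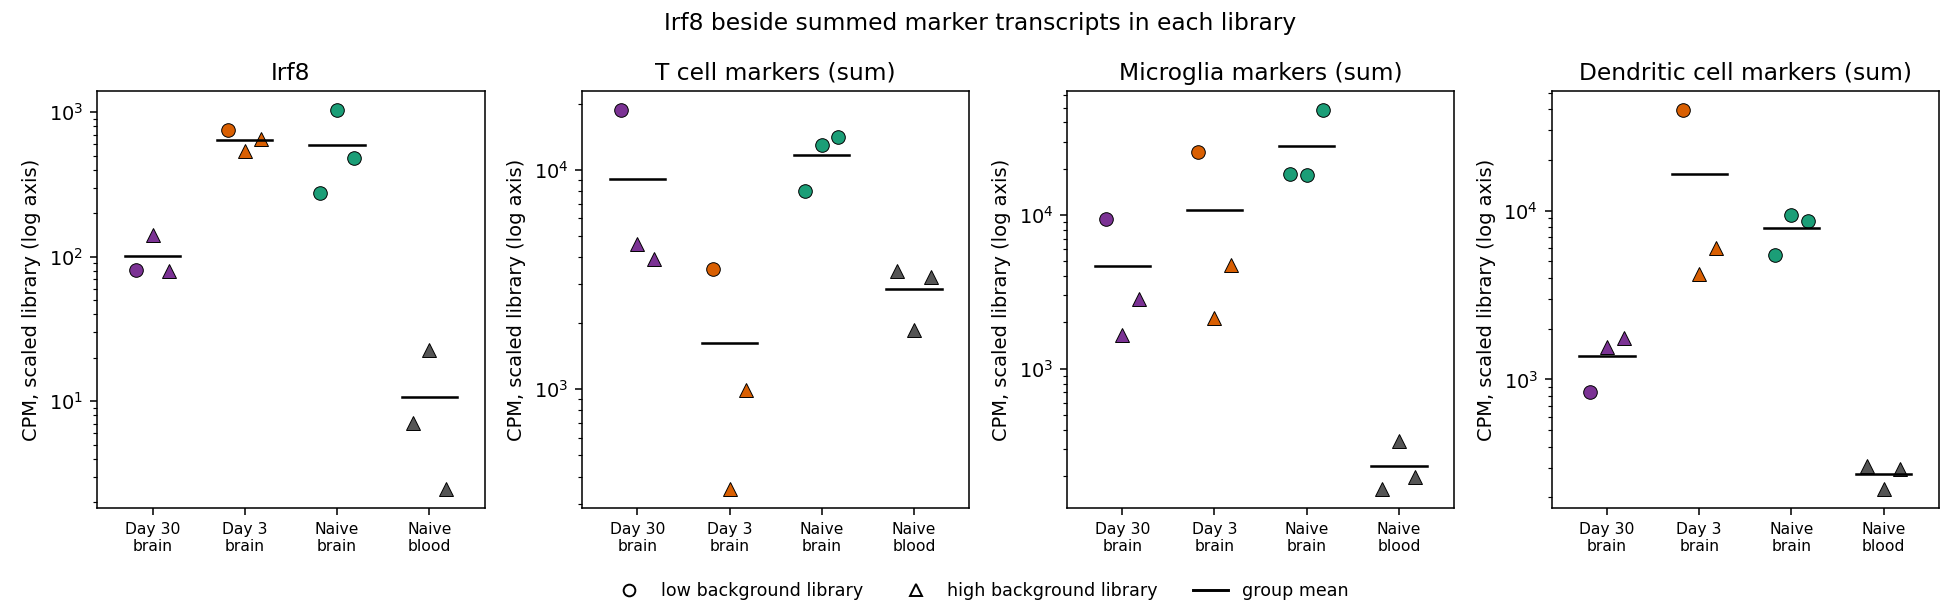
CPM of Irf8 and summed CPM of T cell, microglia and dendritic cell markers in each library on log axes, with circles for low and triangles for high background libraries and lines at group means. Irf8 and the dendritic cell sum were lower in all 3 day 30 libraries than in all 3 day 3 libraries, while the T cell sum in the day 3 libraries lay below that in every day 30 and naive brain library and overlapped with blood.

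In lymphocytes, Irf4 rises with the strength of antigen receptor signalling and supports effector T cell metabolism. Irf4 had the lowest group mean per length in every brain group. It had 6.80, 3.67 and 7.23 CPM in day 30 brain, 50.4, 21.4 and 30.5 CPM in day 3 brain, 3.87, 8.72 and 8.84 CPM in naive brain and, in naive blood, 1.62, 15.9 and 15.8 CPM. The 3 day 3 libraries lay above all others, and the other 3 groups overlapped. The day 3 difference from naive brain was 2.09 ± 1.07 (limma adjusted p = 0.394) and the day 30 difference from day 3 was -2.31 ± 1.07 (adjusted p = 0.799), so neither passed. Day 30 differed from naive brain by -0.21 ± 1.07 (adjusted p = 0.967) and naive brain from blood by -0.23 ± 1.07 (adjusted p = 0.903). These values rest on 54 reads over the 3 day 30 libraries, 263 over day 3, 180 over naive brain and 77 over naive blood. T cell markers ran the other way, with 9 of 9 lower at day 3 than in naive brain. Between day 30 and day 3, 3 of 9 (Cd3g, Lck and Cd2) were higher at day 30. The part of T cells or of other cell types in the Irf4 values was not tested.

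Irf1 drives antigen presentation genes under interferon gamma, and its promoter window holds the single GAS match shown above. Irf1 had the highest group mean per length in naive brain, where Irf5 lay above it in replicates 1 and 3. It had 391, 47.3 and 56.9 CPM in day 30 brain, 254, 76.4 and 77.1 CPM in day 3 brain, 310.4, 789 and 575 CPM in naive brain and, in naive blood, 50.8, 4.39 and 125 CPM. Naive brain lay above day 3 brain and above blood in every library, and day 30 overlapped with it through replicate 1. The difference of naive brain from blood was 3.99 ± 0.84 (limma adjusted p = 0.000889), and those of day 3 and day 30 from naive brain were -2.17 ± 0.84 (adjusted p = 0.268) and -2.34 ± 0.84 (adjusted p = 0.332). Day 30 and day 3 differed by -0.16 ± 0.84 (adjusted p = 0.999). Without day 30 replicate 1 the day 30 difference from naive brain was -3.30 (adjusted p = 0.0134), while within the low background libraries it was -0.41 (adjusted p = 1). The naive brain call against blood was lost with the background term (1.69, adjusted p = 1), edgeR (3.17, 0.0555) and DESeq2 (2.80, 0.0662).

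Irf2, which occupies the sites of Irf1 and restrains interferon responses, did not pass in any comparison. It had 229, 74.8 and 55.5 CPM in day 30 brain, 130.0, 26.4 and 37.0 CPM in day 3 brain, 44.2, 136 and 211 CPM in naive brain and, in naive blood, 28.7, 80.6 and 33.4 CPM. All 4 groups overlapped with one another. The differences were 0.95 ± 0.82 for day 30 against day 3 (limma adjusted p = 0.999), -0.14 ± 0.82 for day 30 against naive brain (0.973), -1.09 ± 0.82 for day 3 against naive brain (0.489) and 1.33 ± 0.82 for naive brain against blood (0.289). The promoter with the ISRE, GAS, EICE and NF-kB matches thus belonged to a gene that passed no test.

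The interferon arm was higher in naive brain than in blood for Irf3 and Irf7. Irf3, the constitutive factor phosphorylated by TBK1, had 207, 84.0 and 42.0 CPM in day 30 brain, 62.8, 27.7 and 42.3 CPM in day 3 brain, 149, 94.5 and 224 CPM in naive brain and, in naive blood, 38.9, 10.4 and 37.3 CPM. Naive brain lay above day 3 brain and above blood in every library, with differences of 2.51 ± 0.81 from blood (limma adjusted p = 0.0423) and, for day 3 against naive brain, -1.78 ± 0.81 (adjusted p = 0.358). Day 30 differed from day 3 by 1.09 ± 0.81 (adjusted p = 0.979) and from naive brain by -0.69 ± 0.81 (adjusted p = 0.805). The Irf3 call against blood was lost when any one of the 6 libraries was left out (adjusted p 0.052 to 0.205) and with unscaled CPM (1.32, adjusted p = 0.202). It was lost too with quantile normalization (adjusted p = 0.247), the background term (1), edgeR (0.244) and DESeq2 (0.149).
Irf7, which interferon itself induces and which amplifies interferon alpha production, had 287, 8.72 and 33.9 CPM in day 30 brain, 236, 38.2 and 33.7 CPM in day 3 brain, 44.6, 458 and 230.3 CPM in naive brain and, in naive blood, 20.0, 34.6 and 4.93 CPM. Its values spread widely within groups, with replicate 1 high at day 30 and day 3 and low in naive brain. Naive brain lay above blood in every library, by 3.36 ± 0.94 (adjusted p = 0.016). The call was lost without naive brain 2 (0.154), naive brain 3 (0.0703) or blood 3 (0.0999), with quantile normalization (0.149) and with DESeq2 (0.0687). The difference was close to 0 with the background term (0.040, adjusted p = 1). Day 30 differed from day 3 by -0.57 ± 0.94 (adjusted p = 0.999) and from naive brain by -1.88 ± 0.94 (adjusted p = 0.564), and without day 30 replicate 1 the difference from naive brain was -3.20 (0.0442). Day 3 differed from naive brain by -1.30 ± 0.94 (adjusted p = 0.480).
Irf9, which turns on target genes downstream of the type I interferon receptor, had 244, 75.8 and 64.6 CPM in day 30 brain, 291, 30.5 and 65.3 CPM in day 3 brain, 137, 191 and 139 CPM in naive brain and, in naive blood, 65.4, 58.1 and 45.1 CPM. It was the steadiest member in the naive groups, at 155 ± 30.7 CPM in naive brain and 56.2 ± 10.3 CPM in naive blood (SD, n = 3 each). Naive brain lay above blood in every library, but the difference of 1.45 ± 0.78 did not pass (adjusted p = 0.227). The other differences were 0.34 ± 0.78 for day 30 against day 3 (0.999), -0.53 ± 0.78 for day 30 against naive brain (0.852) and -0.87 ± 0.78 for day 3 against naive brain (0.542).

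The balance of lymphoid and myeloid members was taken within each library as the mean log2(CPM + 1) of Irf1, Irf2 and Irf4 minus that of Irf5 and Irf8. The measure compares libraries, and 0 has no meaning of its own since gene lengths differ. It was 0.23, 0.36 and 0.14 in day 30 brain, -1.52, -1.68 and -2.04 in day 3 brain, -2.74, -2.38 and -2.14 in naive brain and 1.79, -0.35 and 4.11 in naive blood. The 3 brain groups did not overlap and lay, from highest to lowest, in the order day 30, day 3 and naive brain. They stood at 0.24 ± 0.11, -1.75 ± 0.27 and -2.42 ± 0.30 (SD, n = 3 each), and blood spread over 1.85 ± 2.23. The low background replicate 1 lay between replicates 2 and 3 at day 30.
Irf4 alone minus Irf8 alone did not give this order. It was -3.40, -4.93 and -3.30 in day 30 brain and -3.87, -4.59 and -4.38 in day 3 brain, which overlapped, against -5.84, -6.73 and -5.63 in naive brain and -1.61, -0.47 and 2.28 in naive blood. Naive brain lay below both stroke groups and blood above all brain groups. In the first measure the mean of the lymphoid members was 5.36 ± 0.97 at day 30, 5.86 ± 0.92 at day 3 and 6.25 ± 0.78 in naive brain. That of the myeloid members was 5.12 ± 1.01 at day 30, 7.61 ± 0.78 at day 3 and 8.67 ± 0.51 in naive brain (SD, n = 3 each). Both means were thus lowest at day 30 and highest in naive brain among the brain groups. The gap between day 30 and day 3 lay on the myeloid side.

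**Figure D4:**
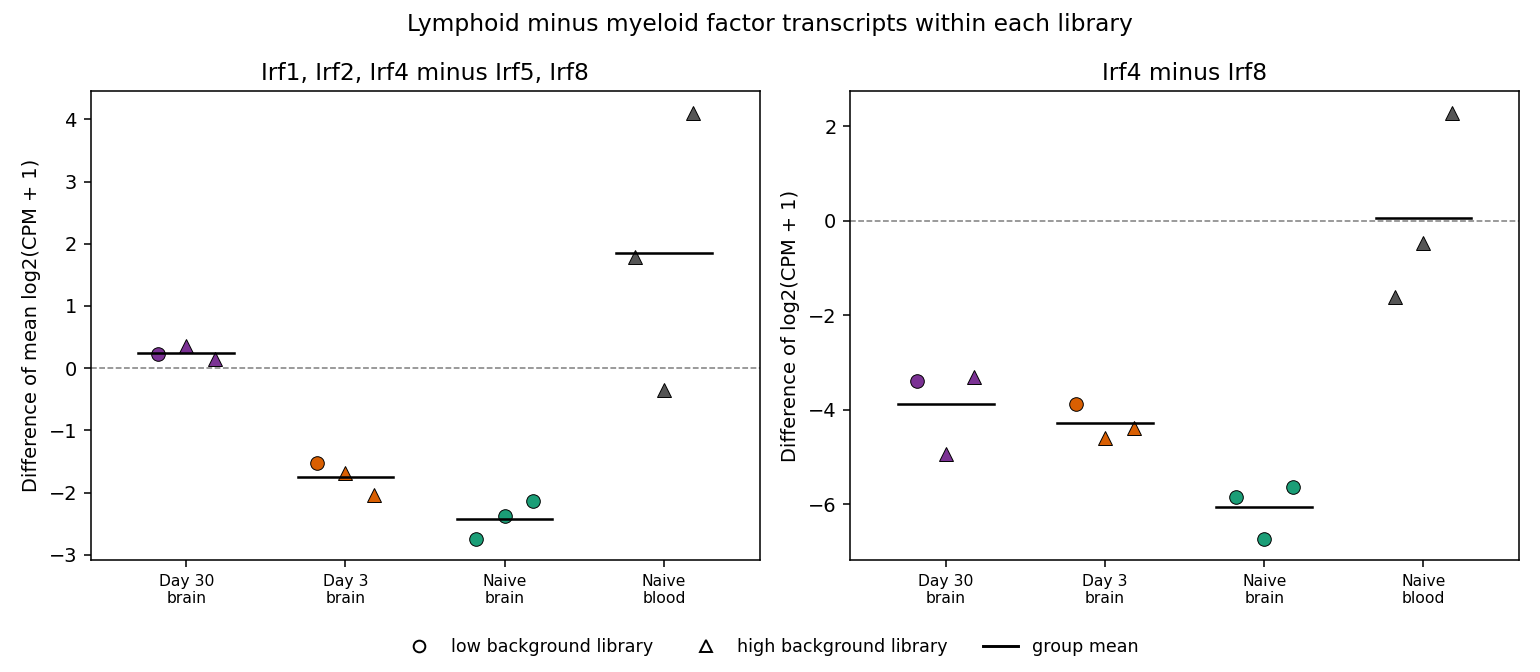
Lymphoid minus myeloid members within each library on the log2(CPM + 1) scale, for Irf1, Irf2 and Irf4 minus Irf5 and Irf8 on the left and Irf4 minus Irf8 on the right, with lines at group means. On the left day 30 sat between 0.14 and 0.36, above all day 3 and naive brain libraries, and on the right day 30 and day 3 overlapped.

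Day 3 brain stood out by its share of Irf8 reads within the family, a measure that does not depend on the library scaling. Shares are compared for 1 gene across libraries and not between genes of different length, and their intervals are exact 95% binomial intervals that cover counting error only. Irf8 took 5.36% (4.84 to 5.93), 32.4% (29.4 to 35.5) and 23.0% (20.0 to 26.1) of the reads on the 8 genes in day 30 brain and 38.9% (37.7 to 40.1), 68.7% (66.5 to 70.9) and 65.9% (63.7 to 68.1) in day 3 brain. It took 22.5% (21.0 to 24.0), 34.6% (34.0 to 35.2) and 20.9% (20.4 to 21.4) in naive brain and 3.28% (1.76 to 5.55), 8.93% (6.49 to 11.9) and 0.930% (0.375 to 1.91) in naive blood. Day 3 lay above every other group in share, although its CPM overlapped naive brain. Irf5 held 2.44% ± 2.08 in day 30 brain, 5.49% ± 2.51 in day 3 brain, 16.8% ± 6.74 in naive brain and 3.68% ± 5.50 in naive blood (SD, n = 3 each). Irf4 held 1.12% ± 0.849, 2.81% ± 0.240, 0.329% ± 0.0457 and 4.35% ± 3.12 in the same groups. Irf2 held 16.1% ± 0.980 of reads in day 30 brain against 4.61% ± 1.85 in day 3 brain, 5.74% ± 2.93 in naive brain and 19.3% ± 11 in naive blood, so its share in day 30 brain lay above both other brain groups. Irf1 held 17.6% ± 7.56, 10.2% ± 2.72, 25.5% ± 0.913 and 24.3% ± 22.8.

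**Figure D5:**
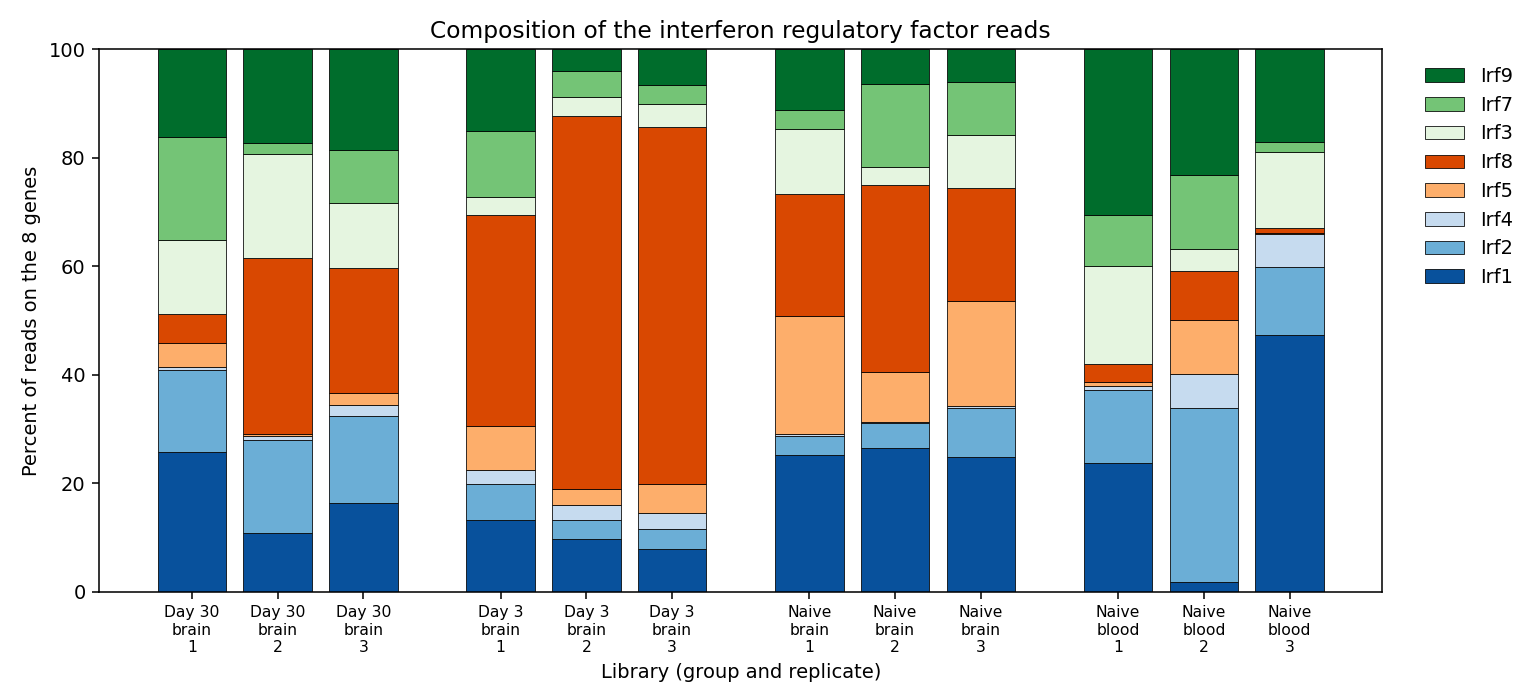
Percent of the reads on the 8 genes that fell on each gene, 1 bar per library, with lymphoid members in blue, myeloid members in orange and the interferon arm in green. Irf8 filled 38.9% to 68.7% of the bars in day 3 brain and 0.930% to 8.93% in naive blood.

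Levels were set against each other only as CPM per kilobase of exon. In day 30 brain the order was Irf1 (41.5 ± 49.2), Irf3 (32.2 ± 24.9), Irf7 (29.1 ± 40.8), Irf9 (23.8 ± 18.7), Irf2 (16.2 ± 12.9), Irf8 (14.3 ± 5.01), Irf5 (9.10 ± 12.8) and Irf4 (1.2 ± 0.395), where neighbours from Irf1 to Irf5 lay within their SD and Irf4 stood below Irf8 in every library. In day 3 brain Irf8 led (91.8 ± 15.1), above Irf1 (34.1 ± 25.7), Irf7 (27.1 ± 30.5), Irf5 (26.7 ± 24.0), Irf9 (23.9 ± 26.2), Irf3 (12.9 ± 5.11), Irf2 (8.71 ± 7.71) and Irf4 (6.96 ± 3.03). The lowest day 3 value of Irf8, 76.2 CPM per kilobase, lay above the highest of Irf1, 63.8, and the other neighbours lay within their SD. In naive brain the order was Irf1 (140.4 ± 60.3), Irf5 (114 ± 36.0), Irf8 (84.8 ± 55.2), Irf7 (64.7 ± 54.8), Irf3 (45.3 ± 18.9), Irf9 (28.9 ± 5.69), Irf2 (17.6 ± 11.3) and Irf4 (1.46 ± 0.578), and the step that stood clear of the spread was the last. In naive blood it was Irf1 (15.1 ± 15.3), Irf9 (10.4 ± 1.92), Irf3 (8.39 ± 4.65), Irf2 (6.43 ± 3.88), Irf7 (5.25 ± 3.92), Irf5 (3.16 ± 4.79), Irf4 (2.27 ± 1.68) and Irf8 (1.51 ± 1.49), with no neighbours apart by more than their SD. Ranks by group mean did not hold in every library, as Irf8, last by its mean in blood, was last in none of the 3 blood libraries.

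The genes around the factors were counted from 8 lists, with calls by limma at the same threshold. Upstream of the factors, the nucleic acid sensors, adaptors and kinases had 4 of 18 higher in naive brain than in blood, Tmem173 (STING, 4.67 ± 0.97), Tlr7 (3.36 ± 1.04), Myd88 (3.35 ± 0.86) and Irak1 (3.12 ± 0.86), and 0 of 18 called in each of the 3 comparisons among brain groups. Among interferon ligands 7 of 8 were tested and Ifng alone was called. Ifng had 794, 38.6 and 114 CPM in day 30 brain, 139.8, 3.18 and 26.8 CPM in day 3 brain, 503, 363 and 468 CPM in naive brain and, in naive blood, 9.19, 4.39 and 1.06 CPM. It was lower at day 3 than in naive brain (-4.12 ± 0.94, adjusted p = 0.0155), where 9 of 9 T cell markers were lower too, and 6.51 ± 0.94 higher in naive brain than in blood (adjusted p = 7.76e-07). The day 3 call of Ifng was lost with the background term (-1.70, limma adjusted p = 1), quantile normalization (0.171), edgeR (0.468) and DESeq2 (0.178). It was lost with a pseudocount of 0.1 (0.0764) and with no filter (0.078). It was also lost when any one day 3 or naive brain library other than day 3 replicate 1 was left out (0.0668 to 0.388). Irf1, whose promoter window holds a match to the GAS letters, had the same direction in both comparisons but passed in the second alone. A link between Ifng and Irf1 was not tested. Of 16 receptor and JAK-STAT genes, 5 were higher in naive brain than in blood, with the feedback inhibitors Socs1 (5.93 ± 1.01) and Socs3 (5.48 ± 0.83) first, and 0 were called among the brain groups.

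Of 16 partner factors, Spi1, the Ets factor that recruits Irf4 and Irf8 to DNA, was lower in day 30 than in naive brain. Spi1 had 47.6, 5.51 and 0.903 CPM in day 30 brain, 307, 45.5 and 31.1 CPM in day 3 brain, 54.6, 198 and 538 CPM in naive brain and, in naive blood, 2.16, 25.2 and 0.352 CPM, and the difference of day 30 from naive brain was -4.42 ± 1.05 (adjusted p = 0.0431). That call was lost with the background term (-2.16, adjusted p = 1), edgeR (0.86) and DESeq2 (0.37). It was also lost when any one day 30 or naive brain library other than day 30 replicate 1 was left out (0.0552 to 0.471). Between naive brain and blood 6 of 16 were higher, among them Spi1 (5.23 ± 1.05), Cebpb (4.15 ± 0.80) and Cebpa (3.28 ± 1.08), both myeloid factors, and Id2 (3.41 ± 0.72). Batf, the partner of Irf4 in T cells, was not called in any of the 4 comparisons.
Among type I interferon target genes, 0 of 27 tested were called in the 3 comparisons among brain groups, and 5 of 27 were higher in naive brain than in blood, including Bst2 (tetherin, 5.84 ± 0.80), Ifi35 (5.08 ± 0.86) and Ifit3 (3.16 ± 0.90). The list's median difference was 0.54 for day 30 against day 3, 0.52 for day 30 against naive brain, -0.01 for day 3 against naive brain and 1.28 for naive brain against blood. Interferon gamma and Irf1 target genes had 9 of 27 higher in naive brain than in blood, among them Il15ra (3.74 ± 0.95), the immunoproteasome subunits Psmb9 (3.49 ± 0.78) and Psmb8 (3.31 ± 0.74) and Casp1 (3.32 ± 0.94), and 0 of 27 called among brain groups, with a median of 1.09 for day 30 against day 3, -0.21 for day 30 against naive brain and -1.60 for day 3 against naive brain.

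Genes linked to Irf4 and BATF in T cells had Myc (-3.55 ± 0.85, adjusted p = 0.0237) and Egr1 (-3.19 ± 0.76, adjusted p = 0.0218), both early genes of antigen receptor signalling, lower at day 3 than in naive brain, the comparison in which Irf4 itself had its positive difference of 2.09. The T cell markers were lower there too, as given above. Both calls were lost with the background term (-2.25 for Myc and -1.44 for Egr1), edgeR and DESeq2. Both were lost without day 3 replicate 2 or 3 or naive brain replicate 2 or 3 (adjusted p 0.147 to 0.233 for Myc and 0.11 to 0.25 for Egr1). Egr1 also lost it without naive brain replicate 1 (0.0597). Against blood 8 of 21 were higher in naive brain, including Egr1 (7.82 ± 0.76), Pdcd1 (5.02 ± 1.0), Ctla4 (4.87 ± 0.89) and Nr4a2 (4.45 ± 0.93), of which Pdcd1 and Ctla4 are inhibitory receptors. Genes linked to Irf8 and Irf5 in myeloid cells had 15 of 22 higher in naive brain than in blood, led by Cx3cr1 (7.15 ± 0.82), Cst3 (6.98 ± 0.67), Unc93b1 (6.6 ± 0.79) and Csf1r (6.37 ± 0.77), with a median of 3.90 against -0.37 over all genes. Of the 22, 3 were lower in day 30 than in naive brain, namely Spi1, the chemokine receptor Cx3cr1 (-3.72 ± 0.82) and Unc93b1 (-3.26 ± 0.79), the chaperone of nucleic acid-sensing Toll-like receptors. Il1b, the inflammatory cytokine, was lower at day 30 than at day 3 (-5.38 ± 1.2, adjusted p = 0.019), and Cx3cr1 (-3.12 ± 0.82) and Cst3 (-3.10 ± 0.67) were lower at day 3 than in naive brain. The list's median was -1.18 for day 30 against day 3, -1.29 for day 30 against naive brain and -0.40 for day 3 against naive brain. Several of these genes, Csf1r and Cx3cr1 among them, are also microglia markers.

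Across the 12 libraries, the genes whose log2(CPM + 1) was most like a member were taken as the 3 with the highest Pearson correlation among 10592 genes with a mean of at least 10 CPM. The 12 points share 4 groups, depth and background, and the values are a description. They were Lair1 (0.979), Tifa (0.971) and Siglech (0.954) for Irf8, and Mafg (0.974), Adap2 (0.970) and Psmd7 (0.958) for Irf5. For Irf4 they were App (0.871), Slfn5 (0.870) and N4bp3 (0.846), the lowest of any member. For Irf1 they were Chmp7 (0.963), Ddost (0.960) and Swi5 (0.955), and for Irf2 Tomm34 (0.947), Slc25a4 (0.940) and Ywhab (0.930). In the interferon arm they were Rgs19 (0.977), Polr1d (0.949) and Psmb8 (0.947) for Irf3, Fam104a (0.963), Tspan14 (0.954) and Tapbpl (0.942) for Irf7, and Tmed2 (0.937), Srsf3 (0.933) and Stx2 (0.928) for Irf9. Within the family the closest gene was Irf3 for Irf1 (0.847), Irf9 for Irf2 (0.802), Irf5 for Irf8 (0.765) and Irf8 for Irf4 (0.359), so Irf4 had no close counterpart among the 8.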

How the data were processed

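Sorted cells went into lysis buffer, and libraries were made with the SMART-Seq v4 ultra-low input chemistry, per the labels' protocols. It has no molecular identifiers, so floors and intervals cover counting error only. The submitters' processing notes name FastQC 0.11.2, STAR 2.5.3a, the mm10 build, featureCounts, Subread and edgeR. Annotation, strand setting and filters were not given in the sources used here.

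A single table was deposited, with a signal per gene that is CPM of a scaled library size. The plan assumed plain CPM, and the signal was tested in the same way. In 12 columns 100% of values were whole multiples of 1 read (tolerance 1e-06 reads). Counts recovered from the deposited signal entered edgeR 4.0.16 and DESeq2 1.42.0 for 11 libraries. Naive brain 3 stayed out of those tests, because an automated check did not accept its step as recovered. At most 3.61% of genes had equal counts in any pair of libraries.

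The deposited signal was taken to log2(CPM + 1), and limma 3.58.1 (R 4.3.3, eBayes with trend, two-sided) was run on all libraries together. It covered 22352 genes that reached 1 CPM in 3 or more libraries, with Benjamini and Hochberg adjustment per comparison (threshold 0.05). Each gene's spread was pooled over all groups, with eBayes drawing on the other genes, so its SE was the same in every comparison. Irf5 had an SE of 0.98 throughout, while its SD on the log2 scale ran from 0.43 in naive brain to 2.34 in day 30 brain. Log2 differences understate changes of low genes. All 8 members passed this filter. The fit was also run on simulated data that held no split between low and high background, so that run cannot speak for the fit under such a split. Low and high background were split at an unscaled 1323 CPM on 1484 receptor genes, after the data were seen.

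Replicate numbers come from the labels. Deviations from the group mean in same-numbered day 30 and day 3 libraries correlated at 0.530, 0.284 and 0.165. Each exceeded 0.1, and the replicate block was run as an alternative to the main fit, which held group alone. Day 30 replicate 2 correlated with day 3 replicate 3 at 0.214, and day 30 replicate 3 with day 3 replicate 2 at 0.180. Both exceed the 0.165 of the same-numbered replicates 3, so the numbers do not set replicates 2 and 3 apart as pairs. Pairing and background cannot be told apart here, since both replicates 1 were low.

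The members and lists were chosen with earlier results of these data known. All members were named, with up to 4 called genes per list by size of difference. The markers Trac, Trbc1 and Trbc2 were not analysed here. The alternatives were 2 other pseudocounts (0.1, 5), no filter, unscaled CPM, quantile normalization, a background term, the replicate block and leaving out each library. Added after seeing the data were libraries of 1 background alone and the count tests on 11 libraries.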

Additional observations from a re-analysis of the deposited data

How the results depend on the processing

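Of the member values recomputed, 413 kept their direction and call, 35 lost a call, 7 gained one and 49 reversed. Depth limited Irf4 most, with 54 reads over the 3 day 30 libraries, and Irf5 in blood, with 51. The median of all genes moved with unscaled CPM to 1.13 for day 3 against naive brain, 0.57 for day 30 against naive brain, -0.45 for day 30 against day 3 and -1.05 for naive brain against blood, from which the member values under that setting should be read. Of 29 listed genes named as higher in naive brain than in blood, 26 lost the call with the background term, 10 with quantile normalization, 8 with unscaled CPM, 11 with edgeR and 12 with DESeq2. The listed genes named for day 3 or day 30 against naive brain (Ifng, Myc, Egr1, Cst3, Cx3cr1, Spi1 and Unc93b1) lost it under most settings. Il1b, named for day 30 against day 3, lost it with a pseudocount of 0.1, without a filter, within the high background libraries and without day 30 brain 3, day 3 brain 1 or day 3 brain 2. Unless stated, the cause of a change was not tested.

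The 160 genes called for day 3 against naive brain became 44 with a pseudocount of 0.1, 45 without a filter, 56 with quantile normalization, 5 with the background term, 0 among low background libraries alone, 48 with the replicate block, 7 with edgeR, and 22 (without naive brain 2) to 666 (without day 3 brain 1) leaving out 1 library. The 50 for day 30 against naive brain became 2 with a pseudocount of 0.1, 1 without a filter, 119 with unscaled CPM, 12 with quantile normalization, 0 with the background term, 0 among low background libraries, 91 with the replicate block, 1 with edgeR, 101 with DESeq2, and 1 (without day 30 brain 2) to 532 (without day 30 brain 1) leaving out 1 library. The 57 for day 30 against day 3 became 31 with a pseudocount of 0.1, 24 without a filter, 265 with unscaled CPM, 134 with quantile normalization, 140 with the background term, 15 among high background libraries, 538 with the replicate block, 148 with DESeq2, and 26 (without day 3 brain 2) to 115 (without day 3 brain 1) leaving out 1 library. The 1696 for naive brain against blood became 704 with quantile normalization, 35 with the background term, 529 with edgeR, and 768 (without naive brain 3) to 1939 (without naive brain 1) leaving out 1 library, with 906 without naive brain 2. The split of higher against lower genes depended on scaling: for day 3 against naive brain it was 34 and 126, against 115 and 110 with unscaled CPM, 25 and 31 with quantile normalization and 205 and 35 with DESeq2. For day 30 against naive brain it was 0 and 50, against 29 and 90, 4 and 8, and 78 and 23 in the same settings, and for naive brain against blood 1478 and 218, against 692 and 867 with unscaled CPM and 656 and 822 with DESeq2. Day 30 against day 3 had 26 and 31, against 40 and 108 with DESeq2.

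Among the 8 genes, the 1 call for day 30 against naive brain, Irf5, became 0 with a pseudocount of 0.1, without a filter, with quantile normalization, the background term, low background libraries alone, edgeR and DESeq2, and 0 to 3 leaving out 1 library (3 without day 30 brain 1: Irf1, Irf5 and Irf7). The 0 calls for day 30 against day 3 became 1, Irf8, with unscaled CPM, quantile normalization, the background term, the replicate block and DESeq2. The 5 calls for naive brain against blood became 3 with quantile normalization, 1 with the background term, 3 with edgeR and 2 with DESeq2, and 3 to 4 leaving out 1 library.

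These values reversed sign, among them Irf7, Irf2 and Irf9 with main differences of more than 1 in size. For day 3 against naive brain, Irf2 became 0.19 with the background term and 0.26 among low background libraries, Irf7 became 0.91 and 0.48, and Irf9 became 0.62 and 0.92 in the same settings and 0.11 with unscaled CPM and 0.11 with quantile normalization, and Irf8 ran from -0.14 to 0.80 leaving out 1 library. For day 30 against naive brain, Irf2 became 0.54 with unscaled CPM, 0.45 with quantile normalization, 1.14 with the background term, 1.07 among low background libraries, 0.43 with edgeR and 0.47 with DESeq2, and ran from -0.78 to 0.34 leaving out 1 library. In that comparison Irf3 became 0.18 with the background term and 0.49 among low background libraries, Irf7 became 0.34 and 0.77, and Irf9 became 0.96 and 0.67 in the same settings, 0.15 with unscaled CPM and 0.094 with quantile normalization. Irf4 became 0.37 with unscaled CPM, 0.22 with the background term, 0.0079 among low background libraries and 0.047 with DESeq2, and ran from -0.55 to 0.047 leaving out 1 library. For day 30 against day 3, Irf1 became 0.29 with edgeR and 0.058 with DESeq2 and ran from -1.13 to 0.41, Irf7 became 0.12 with edgeR and ran from -1.90 to 0.55, and Irf9 became -0.011 with quantile normalization and -0.083 with DESeq2 and ran from -0.37 to 1.23. For naive brain against blood, Irf2 became -0.59 and Irf9 -0.78 with the background term, and Irf4 ran from -1.12 to 0.22 leaving out 1 library. With Irf4 minus Irf8 in place of the mean of members, the day 30 value was -3.88 where the balance was 0.24.

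The replicate numbers did not pair the libraries in the other 3 comparisons, where same-numbered libraries correlated at -0.421, -0.141 and -0.203 for day 3 and naive brain, -0.390, -0.0901 and -0.116 for day 30 and naive brain and -0.0356, -0.0207 and 0.0247 for naive brain and blood. Between day 30 and day 3 the replicate block changed the call of Irf8 and of no other member. Naive brain against blood had no value within 1 background, since naive brain was all low and blood all high, and day 30 against day 3 was not run within the low background libraries, which hold 1 library of each.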
